A study of Mus musculus with 12 samples.

Results

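The genes described here encode RNA polymerase I (Pol I), RNA polymerase III (Pol III) and the factors that bring them to their promoters. They are the 41 genes of a list of this machinery, found by gene symbol in a table of 55385 genes of C2C12 cells, a mouse myoblast line. All 41 were present under 1 identifier each, and all 41 passed the filter on low counts that left 15932 tested genes. The list was divided into 4 parts. There were 12 genes of Pol I alone (6 subunits and 6 initiation factors), 19 of Pol III alone (8 subunits, 10 initiation factors and the repressor Maf1), 7 subunits shared between polymerases, and 3 nucleolar proteins that work with Pol I.

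Pol I works in the nucleolus and transcribes a single kind of gene, the repeated ribosomal DNA whose long precursor RNA is cut into the 18S, 5.8S and 28S rRNAs. Pol III makes short untranslated RNAs, among them 5S rRNA, the tRNAs, 7SK and the RNA of the signal recognition particle. Both enzymes supply the ribosome, their output follows cell growth, and myoblasts leave the cell cycle when they differentiate.

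Total RNA was sequenced from 3 libraries of undifferentiated C2C12 myoblasts and 3 libraries of C2C12 cells differentiated into myotubes for 7 days, with no genetic change or drug given for either group. The series also holds small RNA libraries of stem cells, which measure none of these genes. Total counts ranged from 18335785 to 54083215 per library, and member counts from 127 for Taf1c to 63557 for Ncl in single libraries. All samples come from 1 cell line, and whether samples of a group were separate cultures is not labelled. The p-values therefore cover the spread among these libraries only, and that spread may be technical.

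Markers were read in both groups before the members were described. Summed over 10 markers of differentiated muscle, such as Myog and the myosin heavy chains, the level was 12.5 to 69.9 CPM in myoblasts and 4612, 10810 and 9919 CPM in myotube replicates 1, 2 and 3. CPM are counts scaled to library size after trimmed-mean (TMM) normalisation. Summed over 10 markers of proliferation, such as Mki67 and Mcm5, it was 3228 to 3279 CPM in myoblasts and 1039, 307 and 250.3 CPM in the same myotube libraries. Myotube replicate 1 thus stood apart, with more proliferation RNA and less muscle RNA. The 5 genes of the myoblast identity list summed to 585.6, 958 and 995 CPM in myoblasts and 986, 3015 and 2570 CPM in myotubes. Of these Des rose and Myf5 fell, while Myod1, Pax7 and Cdh15 overlapped between groups and were not called. The adipocyte markers Adipoq and Cidec were at 0 counts in all 6 libraries, and the 5 endothelial and blood markers summed to 1.37 to 3.38 CPM. The whole adipocyte list of 6 summed to 6.23 to 10.6 CPM in myotubes and 20.3 to 23.7 CPM in myoblasts, and the 6 chondrocyte and bone markers to 15.6 to 20.9 and 28.2 to 59.8 CPM. Nearly all of the adipocyte sums was Pparg, at 23.5, 22.9 and 20.2 CPM in the myoblasts and 10.2, 6.19 and 8.75 CPM in the myotubes. Nearly all of the chondrocyte and bone sums was Sox9, at 27.6 to 59.1 CPM in myoblasts and 14.999 to 20.6 CPM in myotubes. Both genes were called lower in myotubes.

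Many genes of the Pol I and III machinery were lower in myotubes. Of the 41 members 19 fell and 0 rose (edgeR quasi-likelihood test with Benjamini-Hochberg adjustment over all tested genes, adjusted p under 0.05). Among all tested genes 40.1% were called, 19.6% lower and 20.5% higher. Another 4 members had an unadjusted p under 0.05, which makes 23 of the 41. All 23 were lower in myotubes. Among all 15932 tested genes 7989 had such a p-value, but in either direction. The share that was lower at this p-value was not counted over all tested genes, so no result is drawn from the 23. The median log2 fold change, always given as myotubes minus myoblasts, was -0.65 over the members and 0.06 over all tested genes. A value below 0 was found in 36 of the 41 members, against 47.8% of all tested genes. In 23 members every myotube library was below every myoblast library, which held for 27.2% of all tested genes. In 1 member, Taf1b, every myotube library was above, against 28.7% of all tested genes. In bulk RNA, fewer cells of a type and less RNA per cell cannot be told apart.

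The parts differed in how many of their genes were called, although no test was made between them. Pol I alone had 6 of 12 genes called lower with a median log2 fold change of -0.81. The 3 nucleolar genes were all lower, with a median of -1.87. Of the 7 shared subunits 4 were lower, with a median of -0.68. Pol III alone had 6 of 19 called lower and a median of -0.38, and 13 of its genes were not called. Among all tested genes 19.6% were called lower. The parts mix roles with unlike medians. In Pol III alone the 8 subunits had a median of -0.63, TFIIIB -0.08 and TFIIIC -0.30, while the single genes of TFIIIA and Maf1 were at -1.65 and 0.33. In Pol I alone the 6 subunits had a median of -0.88 and the 6 initiation factors -0.46. For comparison, 4 of the 8 subunits found in Pol II alone were lower, with a median of -0.55. The Pol III median lay nearest 0 of the 4 parts in all 14 fits, the reported one and its 13 alternatives, while Pol I alone lay below the shared subunits in 12 of the 14. The exceptions were the fits without myoblast replicate 3 (-0.59 against -0.72) and without myotube replicate 1 (-0.61 against -0.65).

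**Figure D1:**
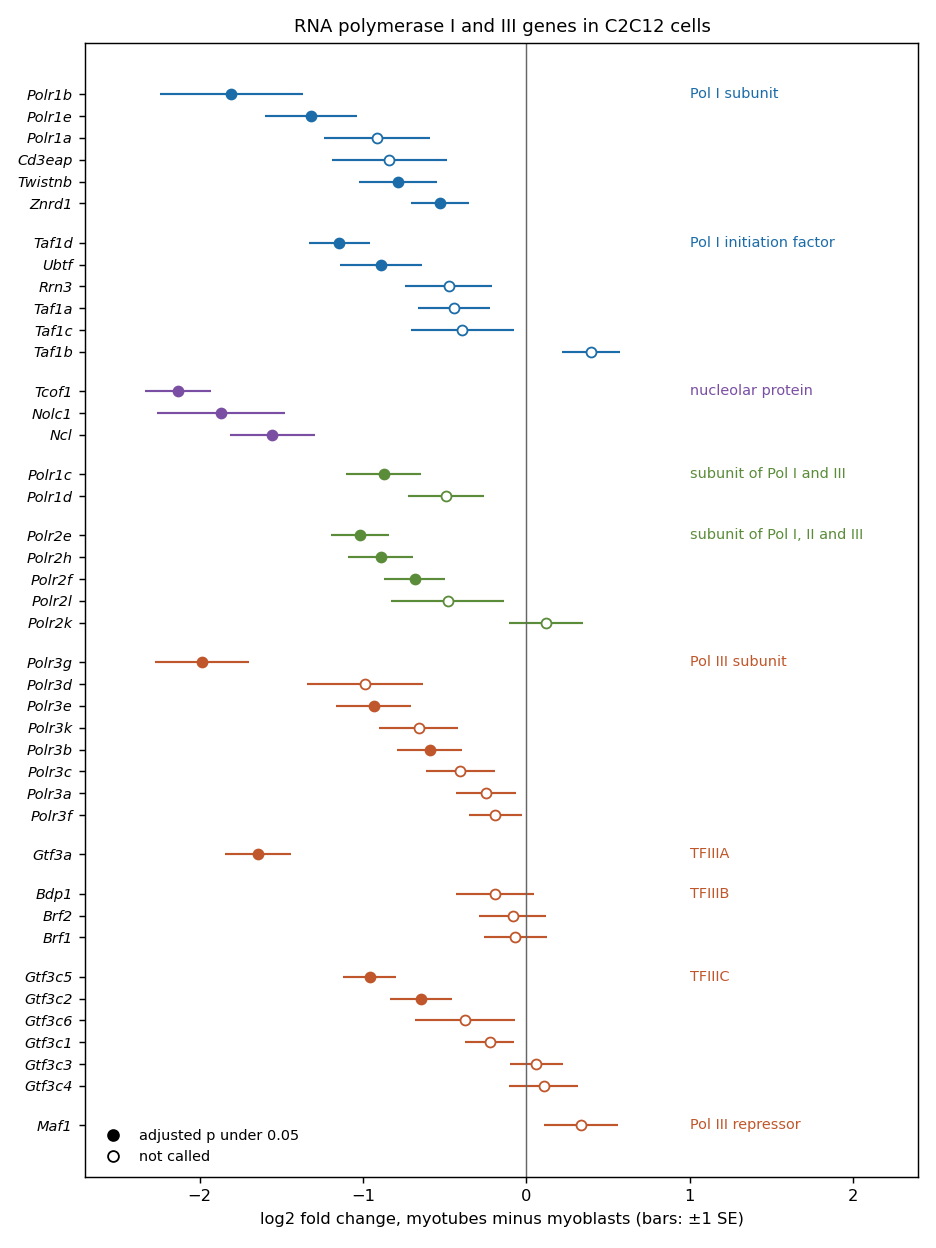
Log2 fold change (myotubes minus myoblasts, horizontal axis) of each of the 41 genes, with bars of 1 SE, grouped by role and coloured by part; filled points were called at an adjusted p under 0.05. Tcof1, Polr3g, Nolc1 and Polr1b lie farthest to the left, while the 3 TFIIIB genes lie close to 0 and only 5 genes have a value above 0.

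All 6 subunits found only in Pol I had lower levels in every myotube library than in any myoblast library, and 4 of them were called. Among all tested genes 27.2% were separated in this direction and 19.6% were called lower. Of the 8 subunits found in Pol II alone, 6 were separated in this direction and 4 were called lower. Polr1b, which forms the catalytic core together with the largest subunit, stood at 32.2, 40.03 and 69.8 CPM in myoblast replicates 1 to 3 and 8.23, 22.1 and 10.03 CPM in myotube replicates 1 to 3. Myotube replicate 2 was the highest of the myotubes and still below all myoblasts, and the log2 change came to -1.81 ± 0.44 (SE, adjusted p = 0.0133). Polr1e and Cd3eap encode a pair of subunits that bind each other on the enzyme's surface. Polr1e fell from 20.1, 19.1 and 25.2 CPM in the myoblasts to 5.53, 10.9 and 9.33 CPM in the myotubes. The change was -1.32 ± 0.28 (SE, adjusted p = 0.00743) on the log2 scale, with the lowest level in myotube replicate 1. Cd3eap, at 24.7, 24.9 and 44.7 CPM in the myoblasts and 10.1, 21.9 and 20.7 CPM in the myotubes, was not called (-0.84 ± 0.35 SE, adjusted p = 0.0895). With the replicate number as a block it was called (adjusted p = 0.0326), and without myoblast replicate 3, its highest library, its value was -0.52.

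Twistnb, the Pol I stalk subunit that contacts Rrn3, changed by -0.79 ± 0.24 (SE, adjusted p = 0.031), from 32.8, 44.3 and 56.2 CPM in the myoblasts to 21.0, 29.5 and 26.8 CPM in the myotubes. The groups were separate, but the call was lost without myoblast replicate 2 or 3 or myotube replicate 3 (adjusted p = 0.082, 0.104 and 0.0747). Znrd1, a small subunit that helps the enzyme cleave its own transcript, had the highest level per length of the 6 in both groups, at 28.8 ± 3.86 and 19.9 ± 1.26 CPM per kilobase (SD, n = 3). It changed least, by -0.53 ± 0.18 (SE, adjusted p = 0.0452), and the call was lost with the replicate block (adjusted p = 0.0576) and in 4 of the 6 runs that left out a library (up to 0.162). Polr1a, the largest subunit, had 115, 107 and 150.4 CPM in the myoblasts and 35.3, 86.5 and 75.9 CPM in the myotubes. It was just outside the threshold (-0.92 ± 0.32 SE, adjusted p = 0.0528), and within it with the replicate block (0.025), with DESeq2 (0.0274) and without myotube replicate 1 (-0.63, adjusted p = 0.0328). The order of the 6 subunits by level per length was the same in both groups, from Znrd1 and Cd3eap down to Polr1b and Polr1e, with a 5.23-fold span in myoblasts and 9.03-fold in myotubes.

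Among the initiation factors of Pol I, 2 of 6 fell, against 19.6% of all tested genes. With so few genes this count is no result about the factors. Their log2 fold changes ran from -1.15 to 0.39, and their difference from the subunits was not tested. Ubtf encodes UBF, which coats the active ribosomal DNA, and Taf1a to Taf1d encode parts of SL1, the factor that joins TBP to the core promoter. Taf1d fell to 45.2% of its myoblast level, from 207, 143 and 172 CPM in the myoblasts to 77.1, 83.2 and 75.6 CPM in the myotubes (-1.15 ± 0.18 SE, adjusted p = 0.00227). All 3 myotube libraries were close together and far below the myoblasts. Ubtf, at 202, 166 and 193 CPM in the myoblasts and 66.1, 114 and 122 CPM in the myotubes, changed by -0.89 ± 0.25 (SE, adjusted p = 0.0225), and lost its call without myoblast replicate 1 or 3 (adjusted p = 0.052 and 0.0614).

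The other SL1 genes were not called, although their difference from Taf1d was not tested. Taf1b had 18.2, 20.2 and 16.9 CPM in the myoblasts and 27.0, 21.5 and 24.3 CPM in the myotubes, higher in every myotube library, but was not called (0.39 ± 0.18 SE, adjusted p = 0.108). Taf1a and Taf1c had log2 fold changes of -0.44 ± 0.22 and -0.39 ± 0.31 (SE) with overlapping groups. Rrn3, the factor that makes Pol I competent to initiate, had the highest level per length of the 6, at 34.7 ± 8.09 CPM per kilobase in myoblasts and 24.9 ± 7.31 in myotubes (SD, n = 3). Its libraries stood at 119, 143 and 188 CPM in the myoblasts and 75.7, 139 and 108 CPM in the myotubes. The groups overlapped and it was not called (-0.48 ± 0.26 SE, adjusted p = 0.182).

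All 3 nucleolar genes fell, with separate groups. Among all tested genes 19.6% were called lower and 27.2% were separated in this direction. Tcof1 had the largest fall of the 41 in the reported fit, but without myotube replicate 2 Polr1b (-2.41) and Polr3g (-2.22) fell more than Tcof1 (-2.19). Tcof1 encodes treacle, a scaffold that binds Pol I and UBF in the nucleolus. It stood at 103, 85.7 and 117 CPM in the myoblasts and 19.3, 23.7 and 26.7 CPM in the myotubes, which left 22.8% of the myoblast level (-2.13 ± 0.20 SE, adjusted p = 0.000254). Nolc1, a chaperone of snoRNA particles that binds treacle, had 228, 164 and 265 CPM in the myoblasts and 27.3, 76.3 and 76.0 CPM in the myotubes (-1.87 ± 0.39 SE, adjusted p = 0.00746). Myotube replicate 1 was far below the other myotubes for Nolc1. Ncl (nucleolin), an abundant nucleolar RNA-binding protein, had 1062, 1019.5 and 1372 CPM in the myoblasts and 289, 406 and 481 CPM in the myotubes (-1.55 ± 0.26 SE, adjusted p = 0.00257). No library of one group reached the other for any of the 3, and all 3 calls held in each of the 13 alternative fits.

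Of the subunits shared by Pol I and Pol III, which form the enzymes' assembly platform, Polr1c was called and Polr1d was not. Polr1c had 46.4, 50.0 and 51.4 CPM in the myoblasts and 36.6, 22.9 and 21.1 CPM in the myotubes (-0.87 ± 0.23 SE, adjusted p = 0.0185), and here myotube replicate 1 was the highest myotube library. Its call was lost in 4 of the 6 runs without a library (up to 0.0592). Polr1d overlapped between groups (-0.49 ± 0.23 SE, adjusted p = 0.123).

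Of the 5 subunits common to Pol I, II and III, 3 fell, against 19.6% of all tested genes. Polr2e had 96.4, 80.7 and 70.9 CPM in the myoblasts and 36.9, 41.4 and 43.9 CPM in the myotubes. It changed by -1.02 ± 0.18 (SE, adjusted p = 0.00319) on the log2 scale, and its groups were far apart. Polr2h had 27.9, 35.6 and 38.4 CPM in the myoblasts and 16.6, 21.4 and 16.8 CPM in the myotubes (-0.89 ± 0.20 SE, adjusted p = 0.009). Polr2f changed by -0.68 ± 0.19 (SE, adjusted p = 0.0214) from 46.2, 47.4 and 48.8 CPM in the myoblasts to 23.5, 35.2 and 29.9 CPM in the myotubes, a call lost without myoblast replicate 2 or 3 or myotube replicate 3 (0.065, 0.0617 and 0.0711). Polr2k and Polr2l, which encode very small subunits, did not pass. Polr2k had 14.1, 18.9 and 13.7 CPM in the myoblasts and 19.4, 18.2 and 13.2 CPM in the myotubes (0.12 ± 0.23 SE, adjusted p = 0.692), so that it replaced Polr2e as the common subunit with the highest mean level per length, at 27.1 ± 5.25 CPM per kilobase in myotubes against 15.3 ± 1.33 for Polr2e (SD, n = 3). The sign of Polr2k turned under scaling by library size alone (to -0.0039), and that of Polr2l (reported value -0.48) without myoblast replicate 1 (0.0214), the library in which it was highest.

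**Figure D2:**
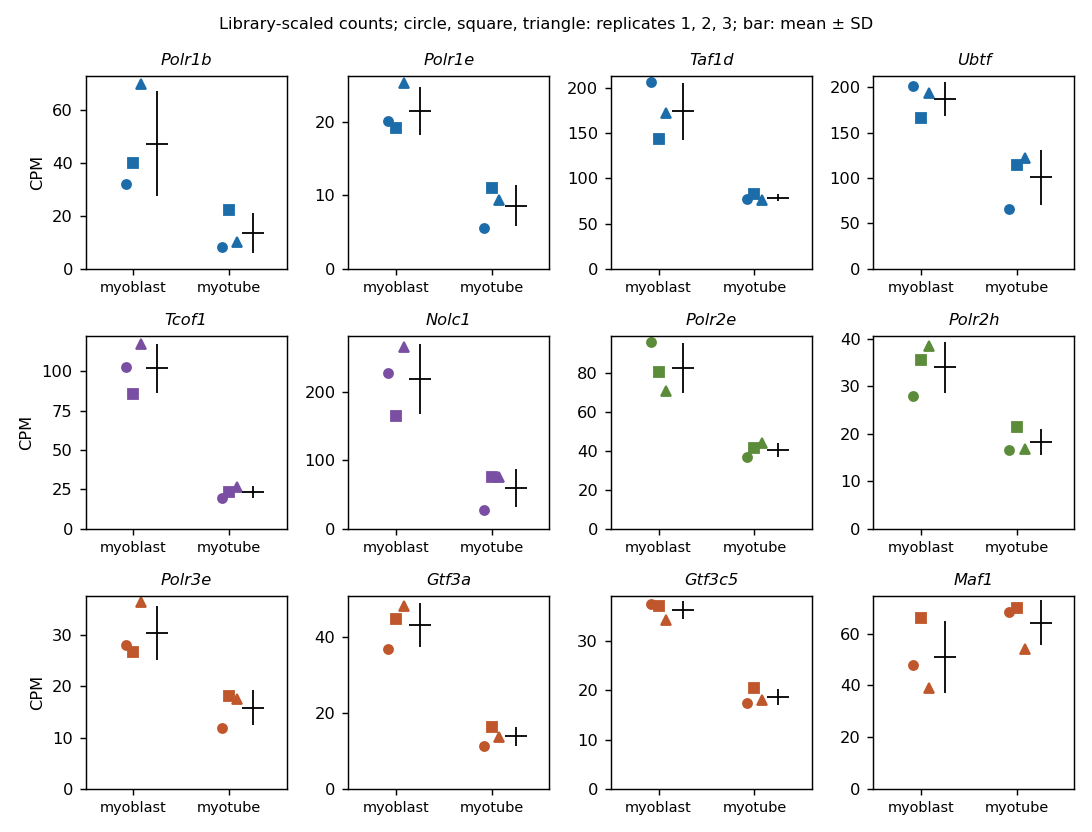
CPM (vertical axes, from 0) of 12 genes in each library, with the mean and SD of 3 libraries beside them. Every gene shown except Maf1 was called lower, so that the groups are apart for these comes with the choice of genes. Myotube replicate 1 (circle) is the lowest myotube library for most of the genes shown.

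Of the Pol III subunits Polr3g changed most. The 8 members all had log2 fold changes below 0, and 3 were called. Among all tested genes 47.8% were below 0 and 19.6% were called lower. Polr3g, which encodes a subunit of the trimer that opens the promoter, fell to 25.3% of its myoblast level, from 27.0, 30.7 and 41.9 CPM in the myoblasts to 5.57, 10.5 and 9.04 CPM in the myotubes (-1.98 ± 0.29 SE, adjusted p = 0.00139). The next called subunits were Polr3e, with 28.0, 26.7 and 36.4 CPM in the myoblasts and 11.8, 18.2 and 17.6 CPM in the myotubes (-0.94 ± 0.23 SE, adjusted p = 0.0133), and Polr3b, the second-largest subunit, with 76.2, 66.1 and 72.1 CPM in the myoblasts and 35.9, 52.2 and 54.0 CPM in the myotubes (-0.59 ± 0.20 SE, adjusted p = 0.0436). The groups did not overlap for these, but the call of Polr3b was lost in 5 of the 6 runs without a library (up to 0.0996), being kept without myotube replicate 1.

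The catalytic subunit Polr3a (-0.25 ± 0.18, SE) and the trimer partners of Polr3g, Polr3c (-0.40 ± 0.21) and Polr3f (-0.19 ± 0.16), were not called, and their groups overlapped. Polr3f had 52.0, 56.1 and 63.9 CPM in the myoblasts and 50.8, 53.6 and 46.2 CPM in the myotubes, a narrow range over all 6 libraries. Polr3d, which pairs with Polr3e, had the highest level per length in myoblasts (14.1 ± 4.72 CPM per kilobase, SD, n = 3). It stood at 29.2, 36.2 and 55.2 CPM in the myoblasts and 11.2, 25.9 and 23.7 CPM in the myotubes. It missed the threshold (-0.99 ± 0.36 SE, adjusted p = 0.0568) and passed with the replicate block (0.0115), with DESeq2 (0.0279) and without myoblast replicate 1 (0.0474) or myotube replicate 2 (0.0486). Polr3k, the Pol III counterpart of Znrd1, overlapped between groups and missed the threshold too (-0.66 ± 0.24 SE, adjusted p = 0.0599), but passed with the replicate block (0.0353) and without myoblast replicate 1 (0.0135). By mean level per length Polr3g went from the sixth to the last place among the 8 subunits.

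Mammals carry a second gene for the same subunit, Polr3gl, whose product takes the place of that of Polr3g in a separate form of Pol III. Polr3gl is not on the list of 41, and it was read beside Polr3g because the pair can be compared within a library. Polr3gl rose where Polr3g fell, with 3.84, 3.77 and 3.24 CPM in the myoblasts and 20.1, 13.3 and 14.8 CPM in the myotubes (2.14 ± 0.25 SE, adjusted p = 0.000576). Every myotube library was far above every myoblast library, and the call held in all 13 alternative fits. Crcp, another Pol III subunit off the list, fell (-0.54 ± 0.16 SE, adjusted p = 0.0274). Its call was lost in 4 of the 6 runs without a library (up to 0.088).

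Per kilobase of gene model, Polr3g exceeded Polr3gl 2.84, 3.29 and 5.22 times in myoblast replicates 1 to 3, and the ratio was 0.113, 0.32 and 0.248 in myotube replicates 1 to 3. The order of the pair was therefore opposite in myoblasts and myotubes, without exception among the 6 libraries. The mean log2 ratio was 1.87 ± 0.46 for myoblasts and -2.27 ± 0.78 for myotubes (SD, n = 3). The difference was -4.14 (exact two-sided permutation test over samples, p = 0.1, the smallest that 3 against 3 samples allow). It ranged from -4.45 to -3.69 when single libraries were left out. Added together, the levels of the pair were 10.7 ± 1.76 CPM per kilobase in myoblasts and 12.2 ± 1.59 CPM per kilobase in myotubes (SD, n = 3), and the libraries overlapped. Polr3gl made up 26.0%, 23.3% and 16.0% of that sum in the myoblast libraries and 89.9%, 75.7% and 80.1% in the myotube libraries. Myotube replicate 1, which had the most proliferation RNA of the 3 myotube libraries, had the lowest ratio of the 6.

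**Figure D3:**
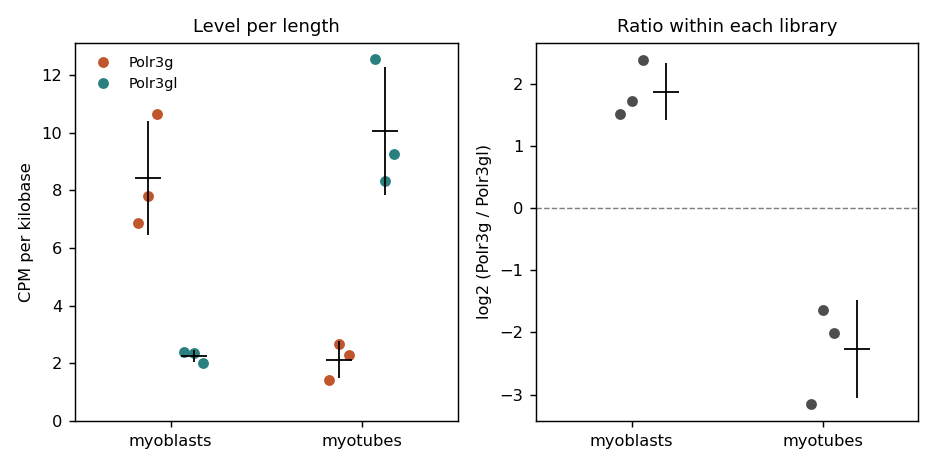
Left, CPM per kilobase of Polr3g and Polr3gl in each library with the mean and SD of 3; right, the log2 ratio of Polr3g to Polr3gl within each library, where 0 means equal levels. All myoblast libraries lie above 0 and all myotube libraries below, at means of 1.87 and -2.27.

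Of the 10 factors that recruit Pol III, 3 fell, against 19.6% of all tested genes. With so few genes this count is no result about the factors as a group. Gtf3a encodes TFIIIA, the zinc finger protein needed for 5S rRNA genes alone. It fell to 31.9% of its myoblast level, from 36.9, 44.6 and 48.1 CPM in the myoblasts to 11.4, 16.2 and 13.7 CPM in the myotubes (-1.65 ± 0.20 SE, adjusted p = 0.000697), and held its call in all 13 alternative fits. TFIIIB, which places Pol III on its start sites, had 0 of 3 genes called, and 0 of 3 with an unadjusted p under 0.05. Among all tested genes 40.1% were called in either direction, so 0 of 3 is no result about TFIIIB. Its scaffold gene Bdp1 had 99.4, 110.4 and 146 CPM in the myoblasts and 76.0, 109 and 126 CPM in the myotubes, with overlapping groups (-0.19 ± 0.24 SE, adjusted p = 0.542). Brf1, used at tRNA and 5S genes, and Brf2, used at genes such as those of U6 and 7SK, had log2 fold changes of -0.07 ± 0.19 SE, adjusted p = 0.792 and -0.08 ± 0.20 SE, adjusted p = 0.757. DESeq2 and limma-voom also called none of these 3 genes. The sign of Brf1 turned without myotube replicate 1 (0.0528).

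TFIIIC binds the internal promoters of tRNA genes, and 2 of its 6 genes fell, against 19.6% of all tested genes. With so few genes this count is no result about TFIIIC. Gtf3c5 had 37.6, 37.2 and 34.2 CPM in the myoblasts and 17.5, 20.4 and 18.1 CPM in the myotubes (-0.96 ± 0.16 SE, adjusted p = 0.00263), with tight and separate groups. Gtf3c2 had 28.2, 30.3 and 36.0 CPM in the myoblasts and 17.7, 23.4 and 19.2 CPM in the myotubes (-0.65 ± 0.19 SE, adjusted p = 0.0268), and lost its call without myoblast replicate 2 or 3 or myotube replicate 3 (0.0677, 0.0893 and 0.0978). Gtf3c1, the largest subunit, was lower in every myotube library, at 129, 123 and 129.6 CPM in the myoblasts and 101, 112 and 114 CPM in the myotubes, by too little to pass (-0.23 ± 0.15 SE, adjusted p = 0.258). Gtf3c4, with the highest level per length of the 6, stood at 99.8, 101 and 121 CPM in the myoblasts and 85.1, 135 and 126 CPM in the myotubes, with a log2 difference of 0.10 ± 0.21 SE, adjusted p = 0.71. For Gtf3c3 the difference was 0.06 ± 0.16 SE, adjusted p = 0.779. The groups overlapped for both, and their signs turned when libraries were scaled by size alone (-0.0072 and -0.0567). Gtf3c6 stood at 17.8 CPM in myotube replicate 1 and within the myoblast range in the other myotubes (-0.38 ± 0.31 SE, adjusted p = 0.353). Maf1, the repressor that binds Pol III when nutrients or growth signals are withdrawn, had 47.8, 66.3 and 39.0 CPM in the myoblasts and 68.6, 69.9 and 54.3 CPM in the myotubes and was not called (0.33 ± 0.23 SE, adjusted p = 0.271).

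Libraries within a group were ordered alike for many members. Myotube replicate 1 was the lowest myotube library for 31 of the 41 members (75.6%), against 42.7% of all tested genes, and myotube replicate 2 the highest for 27 (65.9% against 29.7%). Myoblast replicate 3 was the highest myoblast library for 26 members (63.4% against 30.6%). The same replicate 1 had the higher proliferation and lower muscle markers given above. Without it 20 members were called lower and their median was -0.58, against 19 and -0.65 with it. Without myoblast replicate 3, 12 were called lower, and the median was again -0.58. Calls over all tested genes fell in that run too, from 6386 to 4708, with 13.1% lower against 19.6%. Without myoblast replicate 2 or myotube replicate 3, 13 members were called lower, beside 12.9% and 13.1% of all tested genes. The part of these libraries' other differences in the result was not tested.

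**Figure D4:**
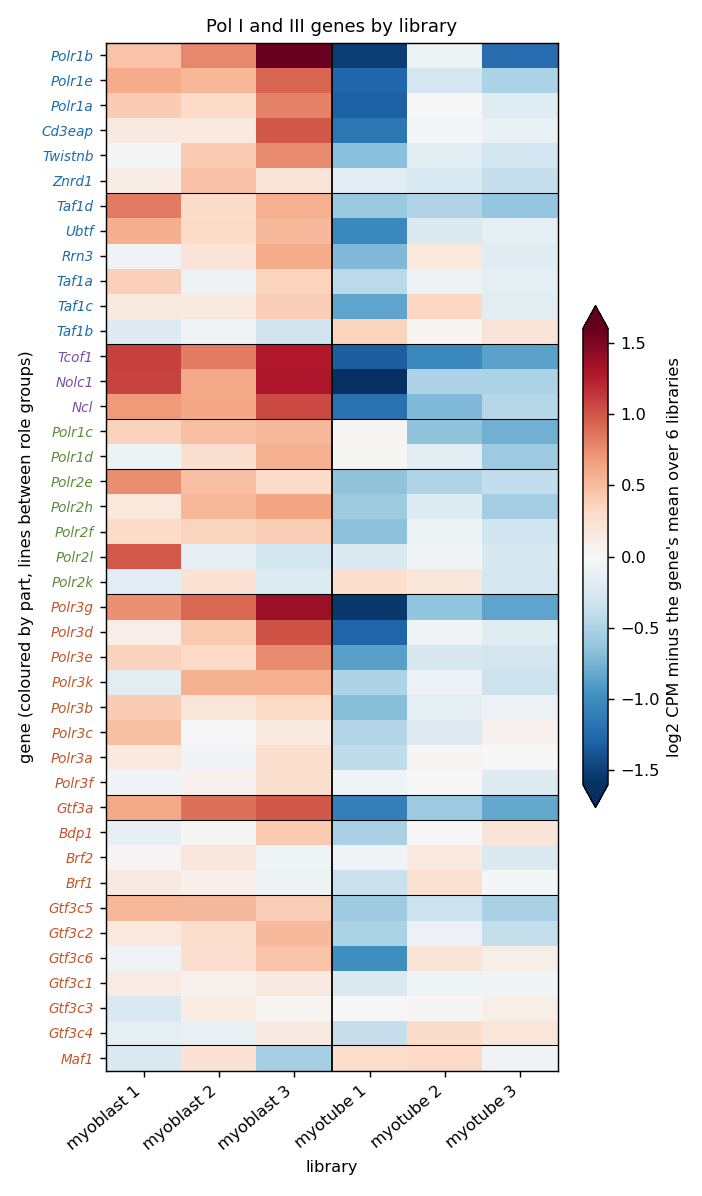
Log2 CPM of each gene minus its mean over the 6 libraries (colour), by library (columns) and gene (rows, in role groups). Red is the more frequent colour in the myoblast columns, deepest in replicate 3 for many genes, and blue in the myotube columns, deepest in replicate 1 for many; Taf1b, Polr2k, Gtf3c3, Gtf3c4 and Maf1, the 5 genes with a log2 fold change above 0, do not follow this, and Brf1 and Brf2 are pale throughout.

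A list of further regulators was read for the same machinery. Of the 9 tested genes of the MYC network, whose namesake activates genes of all 3 polymerases, 2 fell and 3 rose, against 19.6% lower and 20.5% higher among all tested genes. With so few genes these counts are no result about the network. Myc itself had 55.1, 38.3 and 79.8 CPM in the myoblasts and 17.0, 25.8 and 29.7 CPM in the myotubes (-1.26 ± 0.31 SE, adjusted p = 0.0137), with separate groups. Mxd1 and Mxd4, which compete with Myc for its partner Max and repress, rose by 3.31 ± 0.28 and 2.01 ± 0.33 on the log2 scale (SE). Mxd1 went from 6.35, 6.92 and 5.67 CPM in the myoblasts to 40.7, 69.9 and 78.1 CPM in the myotubes, and Mxd4 from 33.0, 53.4 and 21.9 CPM in the myoblasts to 180.1, 133 and 124 CPM in the myotubes. Mxd3, a family member expressed in dividing cells, changed by -2.53 ± 0.55 (SE, adjusted p = 0.00861), and with no filter on low counts the adjusted p was 0.0613.

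SNAPc is the complex that recruits Pol III to genes of the U6 and 7SK type. With TBP and 2 activators it formed a list of 8, of which 2 fell and 1 rose, at a median of -0.22. These counts are near the background of 19.6% lower and 20.5% higher. Snapc4 and Snapc2 changed by -0.76 ± 0.18 (SE, adjusted p = 0.0129) and -0.68 ± 0.18 (SE, adjusted p = 0.0186), and Snapc3 by 0.76 ± 0.21 (SE, adjusted p = 0.0204), a call lost in 4 of the 6 runs without a library (up to 0.101). Snapc2 was lost without myoblast replicate 2 (0.07) or myotube replicate 3 (0.0531). Of 5 tested genes of rDNA termination and silencing 2 fell. These were Smarca5 (-0.60 ± 0.19 SE, adjusted p = 0.0395) and Cavin1 (-0.78 ± 0.22 SE, adjusted p = 0.0215), which also has a large role in caveolae. Each lost its call in several runs without a library (up to 0.135 and 0.0758), while Ttf1, the terminator protein itself, was at 0.17 ± 0.17 (SE). In Pol II alone the largest called falls were those of Polr2d (-0.99 ± 0.19 SE, adjusted p = 0.00489) and Polr2m (-0.98 ± 0.27 SE, adjusted p = 0.0223), the latter lost in 3 runs without a library (up to 0.0813).

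The table also counted some RNAs that Pol III makes. Of the 8 tested, 0 were called lower in myotubes and 4 higher, against 19.6% lower and 20.5% higher among all tested genes. Their median log2 fold change was 1.21. With so few genes these counts are no result about the output of Pol III. Rn7sk, the RNA that holds the elongation factor P-TEFb inactive, had 7076, 4492 and 2791 CPM in the myoblasts and 14169, 10607 and 9691 CPM in the myotubes (1.26 ± 0.40 SE, adjusted p = 0.0355). Vaultrc5, a vault particle RNA, had 3.66, 0.463 and 0.516 CPM in the myoblasts and 4.99, 13.3 and 14.4 CPM in the myotubes (2.76 ± 0.83 SE, adjusted p = 0.0313). Rny3, which binds the Ro protein, had 51.2, 13.3 and 18.7 CPM in the myoblasts and 55.4, 96.0 and 131 CPM in the myotubes (1.76 ± 0.53 SE, adjusted p = 0.0306). The groups were separate for these, yet myoblast replicate 1 was several times above the other myoblasts for Vaultrc5 and Rny3.

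Most calls among these short RNAs depended on single libraries. The call of Rn7sk was lost in 4 of the 6 runs without a library (up to 0.113) and under scaling by library size alone (0.059), and that of Rny3 in 4 (up to 0.104) and under that scaling (0.0553). Vaultrc5 was lost in 4 (up to 0.088), and with no filter on low counts the adjusted p was 0.177 for Rny3 and 0.165 for Vaultrc5. Without myoblast replicate 1 the log2 fold change of Vaultrc5 was 4.46. Rn7s6, a copy of the signal recognition particle RNA, was lost in 1 (0.0598). Rny1 stood at 60.0, 7.01 and 7.502 CPM in the myoblasts and 21.6, 44.4 and 43.6 CPM in the myotubes, an uneven spread within the myoblasts, and was not called. Whether short RNAs were captured evenly across libraries was not tested. Rn7s1, Rn7s2 and Rn7s6 belong to one family of similar genes, and how the authors' counting divided reads among them was not tested, so the call of Rn7s6 alone is uncertain.

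**Figure D5:**
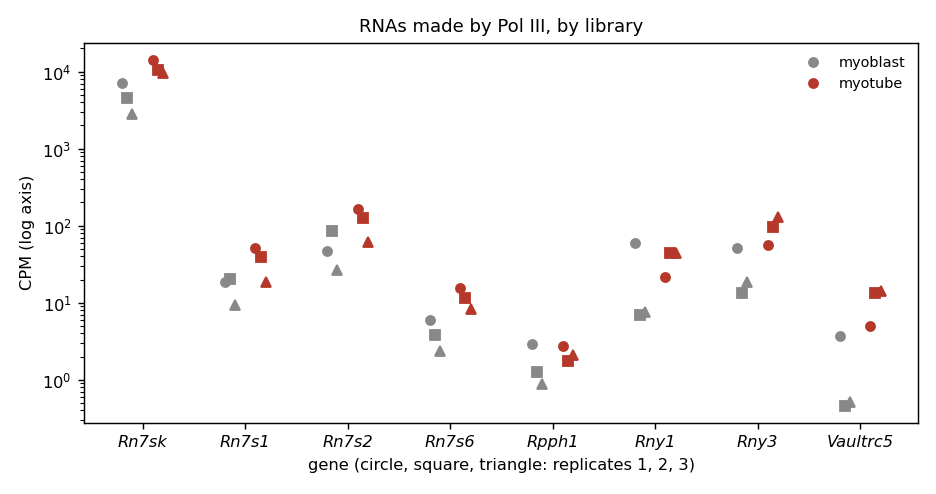
CPM (log axis) of the 8 tested Pol III transcripts in each library, myoblasts in grey and myotubes in red. Myotube libraries lie above the myoblasts for Rn7sk, Rn7s6, Rny3 and Vaultrc5, and the myoblast replicate 1 (circle) lies apart for Rny1, Rny3 and Vaultrc5.

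Promoter sequences of the members were searched for short motifs, with no test made. RefSeq promoters of the mm10 assembly (GRCm38.p6, 250 bases before to 50 after a start) were found for 34 of the 41 members. The letters CCGGAAG, on either strand, are the core bound by ETS family factors. They occurred in 16 of the 34 (47.1%), against 19.6% of the 10569 tested genes with a promoter and 9.93% of all 27025 genes in the table. In 15 of the 16 a match lay within 50 bases of the start, a count that was not made for other genes. The share was alike for members called lower (8 of 18) and not called (8 of 16). The matches of the 8 members called lower are shown with 11 bases on each side, 5′ to 3′ on the gene's strand, with the motif or its reverse complement in capitals.
Gtf3a: gggccgcgttcCCGGAAGttcaaagtctc
Gtf3c2: gccgacctcccCTTCCGGtcgctgaaatt
Nolc1: cgcgtgtgggaCCGGAAGcaacttctaga
Polr1c: ccacttgacgtCCGGAAGtgaaggacgtg
Polr1e: ctagaatgtcaCTTCCGGtttttgagtcc
Polr2f: gccgctgcttcCCGGAAGtaactgcgcct
Polr3b: cggctcggtcaCTTCCGGgttcctccgca
Polr3g: taaaaagctctCTTCCGGgggtgtggcct
The windows lie for Gtf3a at chr5:146948671-146948699 (plus strand), Gtf3c2 at chr5:31180148-31180176 (minus strand), Nolc1 at chr19:46075822-46075850 (plus strand), Polr1c at chr17:46248070-46248098 (minus strand), Polr1e at chr4:45018623-45018651 (plus strand), Polr2f at chr15:79141297-79141325 (plus strand), Polr3b at chr10:84622276-84622304 (plus strand) and Polr3g at chr13:81711025-81711053 (minus strand). The other members with a match were Bdp1, Cd3eap, Gtf3c1, Gtf3c6, Rrn3, Taf1a, Taf1b and Taf1c.

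The E-box CACGTG, the preferred site of MYC with MAX, was in 6 of the 34 promoters (17.6%), against 11.6% of tested genes and 8.09% of all genes. These were Cd3eap, Gtf3c6, Polr2h, Polr3c, Polr3e and Rrn3, of which Polr2h and Polr3e were called lower. CAGCTG, an E-box of the type MyoD binds, was in 3 (8.82%, against 18.4% of tested genes). GGGCGG, the GC box, was in 21 (61.8% against 67.7%), CCAAT in 8 (23.5% against 43.3%) and TATAAA in 1 (2.94% against 9.32%). These are matches of letters on either strand, with no test, and motifs can overlap.

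The promoters of the pair that changed places are shown because they hold different letters. In capitals are CCGGAAG (as its reverse complement) for Polr3g and CACGTG for Polr3gl, and the start site follows base 250.
Polr3g: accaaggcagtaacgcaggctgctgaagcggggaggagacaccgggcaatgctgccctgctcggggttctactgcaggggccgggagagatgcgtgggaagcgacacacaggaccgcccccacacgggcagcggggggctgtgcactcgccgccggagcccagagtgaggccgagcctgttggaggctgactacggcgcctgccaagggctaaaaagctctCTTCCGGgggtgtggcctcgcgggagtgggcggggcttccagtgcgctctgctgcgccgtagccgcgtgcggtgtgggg
Polr3gl: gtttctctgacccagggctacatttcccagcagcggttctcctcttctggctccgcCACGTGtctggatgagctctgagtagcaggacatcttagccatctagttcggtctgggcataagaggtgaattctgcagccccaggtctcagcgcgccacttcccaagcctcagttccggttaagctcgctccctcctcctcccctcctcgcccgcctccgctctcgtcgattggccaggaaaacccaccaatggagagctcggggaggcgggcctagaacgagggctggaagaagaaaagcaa
The Polr3g window is chr13:81710964-81711263 and the Polr3gl window chr3:96594132-96594431, both on the minus strand. Polr3g has a GC content of 69.7%, a pair of GC boxes and no CCAAT, and Polr3gl has a GC content of 59.3%, a pair of CCAAT boxes in the last 24 bases before the start and no GC box.

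Members also carry snoRNA genes. Within RefSeq gene bounds, 9 snoRNA genes lay inside 3 members, with 6 in Taf1d, 2 in Ncl and 1 in Polr3c. Of these 3 hosts, Taf1d and Ncl were among the 11 members called lower in all 13 alternative fits, while Polr3c was not called. The snoRNAs themselves could not be followed in this table. Snord82, inside Ncl, had 3 to 19 counts per library and Snora75 had 0 in all 6, while those in Taf1d were not matched by name. The bounds of 10 members overlap another gene (Polr1a, Polr1e, Cd3eap, Taf1c, Taf1d, Polr2k, Polr3b, Brf1, Brf2 and Gtf3a), and the sources used here do not give the strand setting of the counting. Their counts may therefore hold reads of the neighbour.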

How the data were processed

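Total RNA was sequenced with a stranded, ribosome-depleting kit, per the labels' protocols, from 3 myoblast and 3 myotube libraries. Per the submitters' processing notes, mm10, featureCounts 1.5.1, STAR 2.5.1b, DESeq2 1.18.1, Salmon 0.12.0 and bcl2fastq were used, in no stated role. The authors deposited raw counts per gene with a gene length, and these counts were used here; strand settings are not given in the sources used here. Of 55385 identifiers 55144 were in the reference name table.

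Counts were tested with edgeR 4.0.16 (R 4.3.3): filterByExpr by group, TMM scaling, robust quasi-likelihood F-test, no covariate, Benjamini-Hochberg over 15932 genes, threshold 0.05. SE is the absolute log2 fold change over the square root of F. Values are TMM-scaled CPM, and levels between genes are compared per kilobase of the deposited length. The scripts were tested on simulated data. Alternatives were DESeq2 1.42.0, limma 3.58.1 (voom), other scalings and filters, a replicate block and leaving out each library. Levels at totals of 18335785 to 54083215 counts carry little counting error for the members. No libraries of a group agreed within sampling noise (lowest chi-square over its degrees of freedom, 104.1).

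Same-numbered samples of the groups, as numbered in the labels, deviated from their group means together (correlations of 0.232, 0.189 and 0.17), so the numbers were taken as a possible pairing; myoblast replicate 3 and myotube replicate 2 gave 0.358. The members and lists were chosen with earlier results of these data known. Genes named with every value were, in each role group, up to 3 called members with the largest change and the one with the highest level per length, separated but uncalled members, the Polr3g pair, Myc, and of each further list up to 2 called genes per direction; Polr3f, Gtf3c6, Brf1, Brf2, Rny1, Rn7sk and other genes given without every value were added after their values were seen.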

Additional observations from a re-analysis of the deposited data

How the results depend on the processing

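With the replicate number as a block, 22 members were called lower and 0 higher. Polr1a, Cd3eap, Polr3d and Polr3k were gained and Znrd1 lost, and no other member's call changed. The Polr3g to Polr3gl difference was -4.14 in pairs (exact sign permutation p = 0.25, the smallest for 3 pairs). Of the 19 calls, 11 held in all 13 alternatives (Polr1e, Taf1d, Ncl, Nolc1, Tcof1, Polr2e, Polr2h, Polr3e, Polr3g, Gtf3a and Gtf3c5), and 0 members were called higher in any. Polr1b was lost with no filter on low counts alone (adjusted p = 0.0504). Leaving out single libraries gave 12 to 20 members called lower, with 3 to 7 of Pol I alone, 4 to 7 of Pol III alone and 2 to 4 shared, and 4557 to 6953 genes in all. Without myoblast replicate 3 there were 12 members, 3 of Pol I alone and 2 shared. There were also 2 shared without myoblast replicate 2 or myotube replicate 3. The cause was not tested. Uncalled genes near 0 changed sign. Under library size alone Polr2k was at -0.0039, Gtf3c3 at -0.0567 and Gtf3c4 at -0.0072. Over the runs without a library Polr2k ranged from -0.0037 to 0.2702, Polr2l from -0.7178 to 0.0214, Brf1 from -0.2628 to 0.0528, Gtf3c3 from -0.0502 to 0.1245 and Gtf3c4 from -0.0622 to 0.2612. Scaling by library size alone moved the median of all genes by -0.12 and the share of higher calls from 51.1% to 42.1%. The lowest count of a member in a library was 127, and what depth limits was not tested.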
